A study of Homo sapiens with 9 samples.

Results

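The 51 genes described here encode proteins that license replication origins, open and copy DNA, supply its nucleotides and control S phase. They are a list of symbols that covers origin licensing, the replication fork, nucleotide supply and S-phase control, with no threshold on a measured value, out of 60664 genes in the table. The RNA came from HEK293T, an established line of embryonic kidney origin that carries adenovirus E1 genes and the SV40 large T antigen. The study compared 5 conditions: NC, untreated cells grown at 37 °C (2 libraries); H1, cells heated at 43 °C for 1 h in a water bath (2 libraries); H1R1, H1R6 and H1R18, cells heated in the same way and returned to 37 °C for 1, 6 and 18 h (2, 2 and 1 libraries). All cells were wild type and none received another agent. The comparisons ask which of these genes differ from untreated cells at the end of heat and during recovery, and between successive times.

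Before a cell divides, the origin recognition complex, CDC6 and CDT1 load the MCM helicase onto origins in G1, when no DNA is yet copied. In S phase the helicase is switched on by CDC45 and the GINS complex, polymerases copy the strands with the help of the sliding clamp PCNA, and the short fragments of the lagging strand are trimmed and joined. Many of these genes are transcribed under E2F factors, which the retinoblastoma family of proteins holds back until cells pass out of G1, and the adenovirus E1A and SV40 large T proteins are known to bind that family.

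Every library held between 3814195 and 6221613 counts, and each listed gene had between 73 and 3871 counts in every library, so all 51 passed the filter on low counts. Each read of a pair was counted, so the sequenced fragments are fewer than these counts. Levels below are CPM (counts scaled to a common library size) after TMM scaling, which corrects each library for its depth and composition. A gene was called higher or lower where edgeR's quasi-likelihood test gave an adjusted p under 0.05 over all 21139 genes tested. H1R18 had 1 library, and the test assumes that it varies like the others. No source used here tells whether the libraries are separate cultures, so the p-values measure only the spread between these libraries, which may be technical. The heat shock gene DNAJB1 averaged 2003 CPM in H1, 3755 CPM in H1R1 and 178.8 CPM in H1R6, against 74.95 CPM in NC, so these libraries fitted their labels. In H1R18, DNAJB1 (59.02 CPM) and HSPA8 (267.9, against 471.5 CPM in NC) were below NC. HSPH1 (323.6, against 133.9 CPM) and BAG3 (35.92, against 31.37 CPM) were above it. DNAJB1 thus does not check the label of H1R18. The cell line markers VIM, KRT8, KRT18, NEFM, NEFL and PAX2 had counts in all libraries, and of the genes listed for differentiated kidney and for other cell types, UMOD, HBB and INS were at 0, AQP1 had 2 to 10 counts and DES 2 to 12 counts in each library, NPHS1 had up to 10 and AQP2 up to 16 counts, and SLC12A1, SLC22A6, PTPRC, ALB and PECAM1 had at most 5 counts. COL1A1 of fibroblasts had between 43.98 and 64.23 CPM.

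The promoters of 5 genes, picked by how their levels moved, are printed below. A link between their sequence and the change was not tested. CDC6, UHRF1 and FEN1 were higher at H1R1 and lower at H1R18, MCM6 had the largest fall of the MCM genes, and CDT1 was the single listed gene that was higher at H1R18. Each stretch holds 250 bases before and 50 bases after the start site in RefSeq (GRCh38.p14), 5′ to 3′ on the gene's strand, and capitals mark matches to an E2F motif, searched on both strands as TTTCGCGC, TTTGGCGC, TTTCCCGC and TTTGCCGC. The CDC6 promoter is at chr17:40287629-40287928, plus strand. The UHRF1 promoter is at chr19:4909251-4909550, plus strand. The FEN1 promoter is at chr11:61792661-61792960, plus strand. The CDT1 promoter is at chr16:88803539-88803838, plus strand. The MCM6 promoter is at chr2:135876394-135876693, minus strand.
CDC6: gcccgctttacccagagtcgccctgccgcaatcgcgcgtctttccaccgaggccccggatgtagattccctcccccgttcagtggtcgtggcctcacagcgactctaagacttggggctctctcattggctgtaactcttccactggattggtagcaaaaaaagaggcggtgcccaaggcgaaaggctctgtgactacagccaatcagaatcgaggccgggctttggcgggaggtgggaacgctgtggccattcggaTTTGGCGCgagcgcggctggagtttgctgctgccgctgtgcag
UHRF1: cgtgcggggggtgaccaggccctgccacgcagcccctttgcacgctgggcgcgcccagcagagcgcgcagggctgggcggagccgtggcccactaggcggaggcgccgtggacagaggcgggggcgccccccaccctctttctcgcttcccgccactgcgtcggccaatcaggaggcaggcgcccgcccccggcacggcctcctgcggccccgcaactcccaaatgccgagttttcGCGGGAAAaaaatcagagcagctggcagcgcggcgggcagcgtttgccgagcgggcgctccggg
FEN1: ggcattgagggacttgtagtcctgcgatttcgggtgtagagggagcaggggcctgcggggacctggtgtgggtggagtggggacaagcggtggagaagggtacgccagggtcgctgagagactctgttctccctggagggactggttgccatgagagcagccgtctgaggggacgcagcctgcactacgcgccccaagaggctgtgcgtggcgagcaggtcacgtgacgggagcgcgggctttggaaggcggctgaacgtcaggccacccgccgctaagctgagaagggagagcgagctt
CDT1: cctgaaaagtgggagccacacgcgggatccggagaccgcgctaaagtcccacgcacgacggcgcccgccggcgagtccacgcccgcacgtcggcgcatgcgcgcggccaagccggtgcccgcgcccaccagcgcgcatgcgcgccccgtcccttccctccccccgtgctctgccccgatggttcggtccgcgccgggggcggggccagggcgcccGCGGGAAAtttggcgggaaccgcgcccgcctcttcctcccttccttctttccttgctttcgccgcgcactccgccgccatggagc
MCM6: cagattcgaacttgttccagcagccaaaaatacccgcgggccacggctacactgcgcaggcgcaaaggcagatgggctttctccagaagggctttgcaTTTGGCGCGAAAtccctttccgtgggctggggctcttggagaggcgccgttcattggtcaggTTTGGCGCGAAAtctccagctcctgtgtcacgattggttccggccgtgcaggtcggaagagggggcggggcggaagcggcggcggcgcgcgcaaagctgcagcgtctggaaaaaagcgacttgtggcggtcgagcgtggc
CDC6, UHRF1 and CDT1 each held 1 match, MCM6 held 4 matches in 2 overlapping pairs, and these letters were not found in the FEN1 window.

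Of the 51 genes, 45 had a promoter in the RefSeq table; MCM4, MCM5, GINS4, POLD3, RPA2 and RPA3 had no entry. The E2F motif was found in 21 of the 45 (46.7%), against 3.33% of all 27305 promoters of the same length. The CCAAT box, searched as CCAAT on both strands, was found in 26 of the 45 (57.8%), against 35.7% of all promoters. The heat shock element, searched on both strands as 3 alternating GAA and TTC units with any 2 bases between neighbours, was found in 0 of the 45, against 0.487% of all promoters. The cell cycle homology region, searched as TTTGAA and TTCGAA with their reverse complements, was found in 3 of the 45 (6.67%), against 16.6% of all promoters. In 1 gene the E2F match overlapped another of these motifs. A match is a description of letters and was not tested as a binding site.

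At the end of heat the group had hardly moved. RFC5 was lower in H1 than in NC and no listed gene was called higher, against 1.77% of all genes called lower and 3.43% called higher. At an unadjusted p under 0.05, 3 listed genes were higher and 7 lower, and DESeq2 called 0 in either direction. Here and below, the share of all genes at that unadjusted threshold was not taken, so such counts have no background beside them. Without NC replicate 2 or either H1 library 0 genes were called, and without NC replicate 1 a single gene was called in each direction. The median log2 fold change of the 51 genes was -0.04, against -0.01 for all genes tested.

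After 1 h of recovery, 9 of the 51 genes (17.6%) were higher in H1R1 than in NC and 6 (11.8%) were lower, against 10.7% and 9.53% of all genes. The higher genes were ORC6, CDC6, MCM7, GINS3, FEN1, RPA1, RRM2, UHRF1 and E2F3, and the lower genes were MCM5, RFC1, POLD2, POLD3, PRIM1 and LIG1. These shares were not above the background of well-expressed genes: of 8657 tested genes with a level at or above that of the lowest listed gene, a subset set after the data were seen, 19.9% were higher and 13.5% lower. Scaling by library size alone turned the split to 4 higher and 15 lower, and upper-quartile scaling to 7 and 8. DESeq2 called 7 and 2. Here and below, shares of all genes under such other settings are not given, so these shifts cannot be read as particular to the listed genes. Without H1R1 replicate 1 the counts were 5 and 2, without H1R1 replicate 2 they were 7 and 5, without NC replicate 1 they were 7 and 3, and without NC replicate 2 they were 6 and 4.

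After 6 h, 2 genes (3.92%), CDC6 and FEN1, were higher in H1R6 than in NC and 7 (13.7%) were lower, against 3.0% (635 genes) and 4.03% (851 genes) of all genes. The 7 were CDT1, MCM2, MCM4, MCM5, POLD1, LIG1 and DUT. Among the 8657 well-expressed genes, 6.05% were higher and 8.29% lower, and DESeq2 called 0 of the 51 genes higher and 5 lower. The count of lower genes was 4 without NC replicate 1, without H1 replicate 2 or without H1R6 replicate 1, and 2 without H1R6 replicate 2; the count of higher genes was 1 without NC replicate 2 or either H1R6 library.

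After 18 h the group stood apart most. In H1R18, 19 of the 51 genes (37.3%) were lower than in NC and 1 (1.96%), CDT1, was higher, against 6.43% and 4.58% of all genes and 12.6% and 8.17% of the 8657 well-expressed genes. DESeq2 called 12 lower and 1 higher. The median log2 fold change was -0.23, against -0.03 for all genes tested, and 41 of the 51 genes had a negative value. The 51 genes held 0.635% of the counts in H1R18, against 0.746% and 0.738% in the NC libraries, and between 0.698% and 0.722% in the other 6. The 10 highest genes of the H1R18 library took 7.577% of its counts, against 5.585% and 6.061% in NC; the part of this difference in the result was not tested. The count of lower genes was 12 without either NC library, and the count of higher genes was 2 without NC replicate 1. In these bulk samples, fewer cells in S phase and less of each RNA per cell cannot be told apart.

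**Figure D1:**
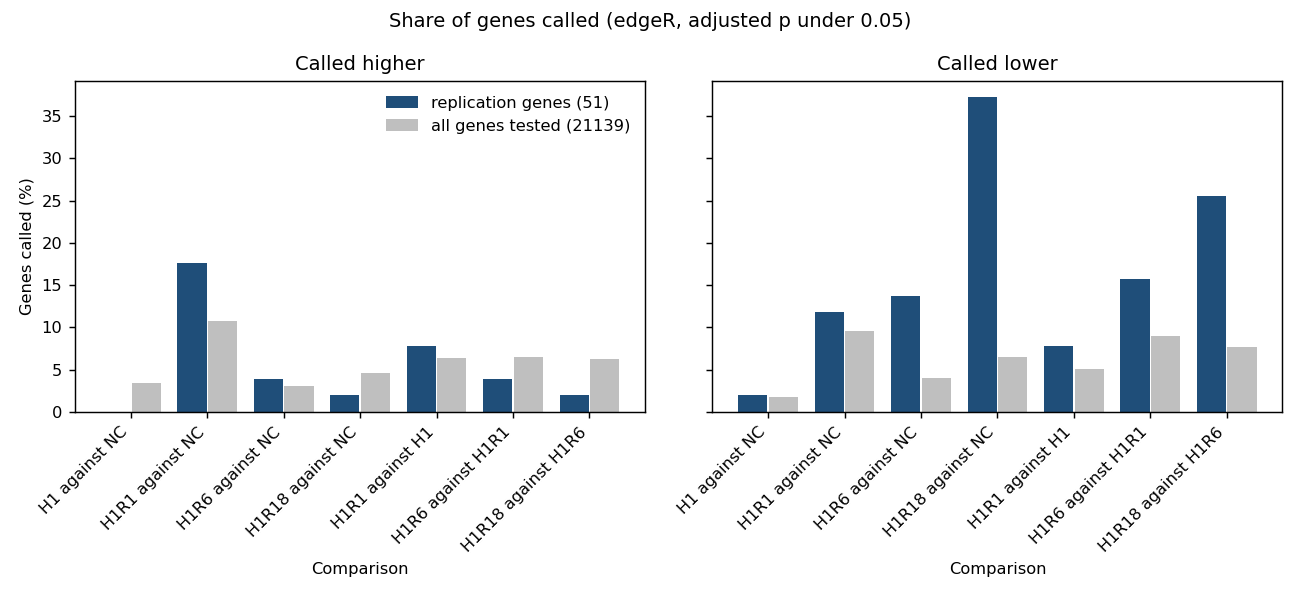
Share of genes called higher (left) and lower (right) in each of the 7 comparisons, in percent, for the 51 replication genes (dark bars) and all 21139 genes tested (grey bars). The tallest dark bar is that of genes lower in H1R18 than in NC, at 37.3% beside a grey bar of 6.43%.

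**Figure D2:**
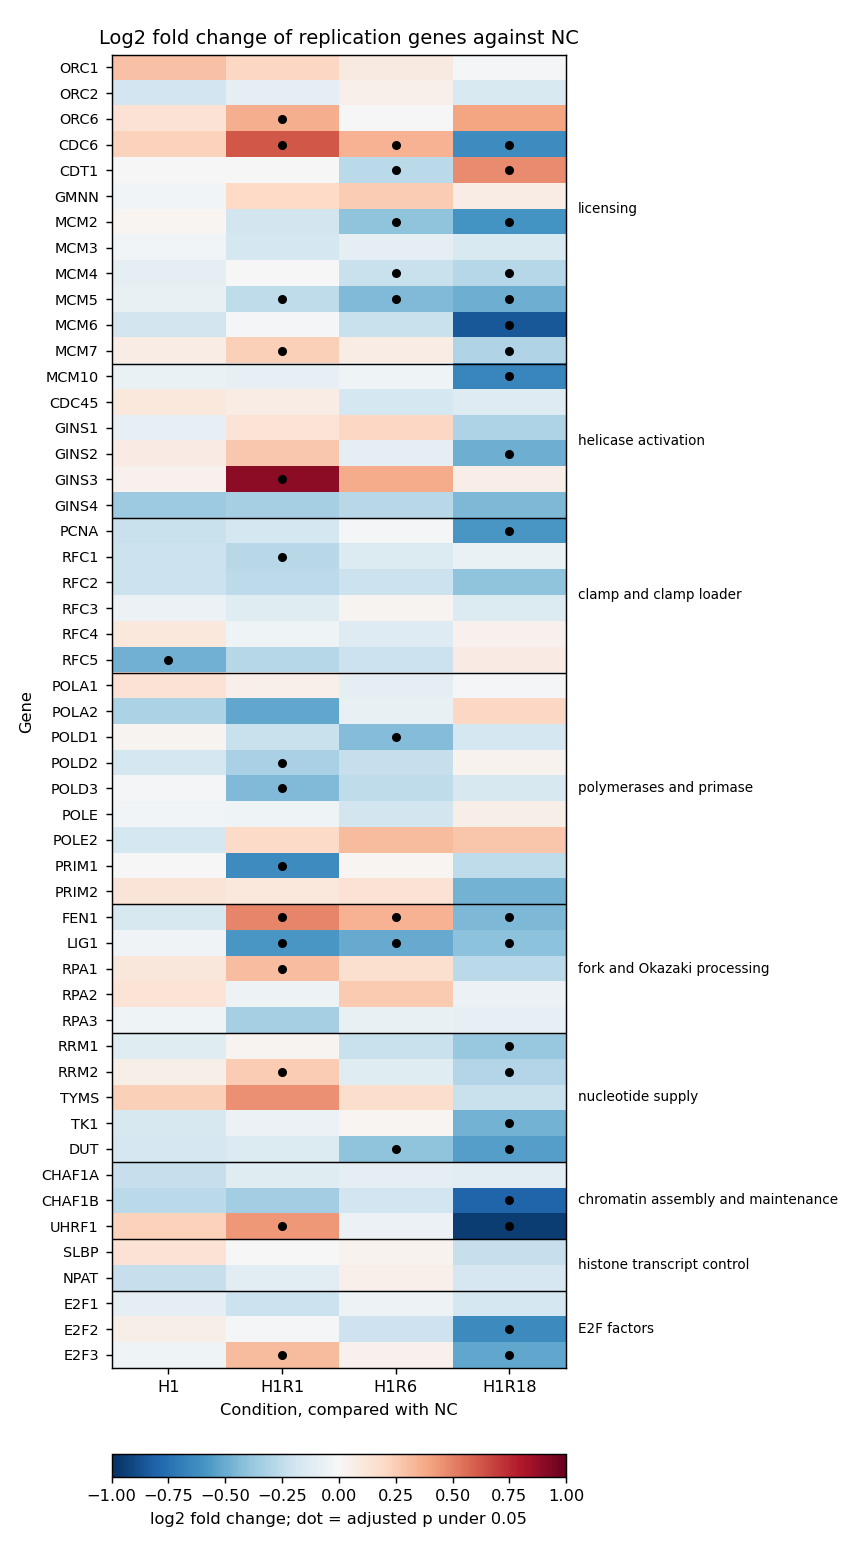
Log2 fold change against NC of each of the 51 genes (rows, grouped by role) in H1, H1R1, H1R6 and H1R18 (columns); dots mark an adjusted p under 0.05. The H1 column has 1 dot, the H1R18 column has 20, and the rows of polymerases and primase have none at H1R18.

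The genes of the helicase loaders CDC6 and CDT1 had opposite calls at H1R18. CDC6 (ENSG00000094804, GRCh38 chromosome 17, 40287879 to 40304657), the ATPase that brings the MCM complex to origins, had 109 and 124 CPM in NC, 131 and 141 CPM in H1, 194 and 162 CPM in H1R1, 142 and 154 CPM in H1R6 and 75.2 CPM in H1R18. Both H1R1 libraries were above all others and the H1R18 library was below all others. Its log2 fold change against NC was 0.62 ± 0.10 (SE) in H1R1 (adjusted p = 2.26e-05), 0.35 ± 0.10 in H1R6 (adjusted p = 0.027) and -0.63 ± 0.14 in H1R18 (adjusted p = 0.00183). The calls at H1R1 and H1R18 held in every alternative, while that at H1R6 was lost without NC replicate 1, without H1R6 replicate 2 and with DESeq2. Here and below, no alternative for a call at H1R18 could leave out the 1 H1R18 library, so such a call still rests on it.

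CDT1 (ENSG00000167513, chromosome 16, 88803789 to 88809258), the partner of CDC6 that is destroyed once S phase starts, had 278 and 249 CPM in NC, 268 and 258 CPM in H1, 255 and 275 CPM in H1R1, 222 and 216 CPM in H1R6 and 366 CPM in H1R18. The H1R6 libraries were the lowest and the H1R18 library was the highest, with no overlap with NC in either case. CDT1 was lower in H1R6 by a log2 fold change of -0.27 ± 0.08 (adjusted p = 0.0353) and higher in H1R18 by 0.47 ± 0.10 (adjusted p = 0.000895). The H1R18 call held in every alternative; the H1R6 call was lost without NC replicate 1 (adjusted p = 0.348), either H1 library (0.0592 and 0.0711) or either H1R6 library (0.167 and 0.278), and with DESeq2, library size only, no filter or a fit on the compared conditions. GMNN, which encodes the CDT1 inhibitor geminin, was not called in any comparison, with log2 fold changes against NC between -0.03 and 0.25.

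ORC1, ORC2 and ORC6 belong to the origin recognition complex, which marks origins. ORC6 had a log2 fold change of 0.37 ± 0.13 in H1R1 against NC (adjusted p = 0.0387), lost without NC replicate 2 (adjusted p = 0.298), H1 replicate 2 (0.0514) or H1R1 replicate 1 (0.284), and with DESeq2, upper-quartile factors, library size only or a fit on the compared conditions. ORC1 and ORC2 were not called in any comparison.

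Among the 6 subunits of the MCM helicase, MCM7 was called higher and MCM5 lower at H1R1, beside 10.7% and 9.53% of all genes. Differences between these subunits were not tested. MCM2 had 293 and 258 CPM in NC, 284 and 275 CPM in H1, 226 and 262 CPM in H1R1, 212 and 205 CPM in H1R6 and 183 CPM in H1R18. MCM5 had 271 and 250 CPM in NC, 236 and 260 CPM in H1, 218 and 220 CPM in H1R1, 193 and 192 CPM in H1R6 and 186 CPM in H1R18. Both genes were below every NC library from H1R6 on, and MCM5 already in H1R1. MCM2 had a log2 fold change of -0.40 ± 0.08 in H1R6 (adjusted p = 0.00211) and -0.59 ± 0.11 in H1R18 (adjusted p = 0.000309), both against NC. MCM5 had -0.25 ± 0.08 in H1R1 (adjusted p = 0.0245), -0.44 ± 0.08 in H1R6 (adjusted p = 0.000489) and -0.48 ± 0.10 in H1R18 (adjusted p = 0.00162), and with LIG1 it was 1 of 2 genes lower at all 3 recovery times.

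MCM7, the subunit with the highest level per length (152.4 RPKM in H1R1, against 129.4 RPKM in NC), went the other way at first. It had 558 and 577 CPM in NC, 596 and 599 CPM in H1, 647 and 690 CPM in H1R1, 591 and 602 CPM in H1R6 and 460 CPM in H1R18. Its H1R1 libraries were the highest of the series and its H1R18 library the lowest. Its log2 fold change was 0.24 ± 0.06 in H1R1 (adjusted p = 0.00892) and -0.30 ± 0.08 in H1R18 (adjusted p = 0.0123), both against NC. Of the exon bases of MCM7, 8.938% overlap AP4M1 on the opposite strand, and the counts do not use strand.

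MCM6 (ENSG00000076003, chromosome 2, 135839626 to 135876443) had 274 and 283 CPM in NC, 264 and 227 CPM in H1, 268 and 281 CPM in H1R1, 235 and 242 CPM in H1R6 and 155 CPM in H1R18. It was called lower in H1R18 alone among the comparisons with NC, with a log2 fold change of -0.85 ± 0.11 (adjusted p = 1.33e-06). MCM4 had 488 and 514 CPM in NC, 464 and 472 CPM in H1, 516 and 485 CPM in H1R1, 436 and 420 CPM in H1R6 and 410 CPM in H1R18, with log2 fold changes of -0.23 ± 0.07 in H1R6 (adjusted p = 0.0397) and -0.29 ± 0.09 in H1R18 (adjusted p = 0.0251). MCM3 was the subunit not called at any time; it had 412 CPM in H1R18, against 457 and 460 CPM in NC (log2 fold change -0.16 ± 0.09, adjusted p = 0.273). At H1R18, 5 of the 6 subunits were thus lower, beside 6.43% of all genes and 12.6% of the 8657 well-expressed genes.

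The H1R18 calls of MCM2, MCM5 and MCM6 and the H1R6 call of MCM5 held in every alternative. Leaving out a single library ended other calls against NC: MCM5 at H1R1 without NC replicate 1 (adjusted p = 0.172), H1R1 replicate 1 (0.121) or H1R1 replicate 2 (0.0709); MCM7 at H1R1 without NC replicate 1 (0.0515) or H1R1 replicate 2 (0.0875), and at H1R18 without NC replicate 2 (0.0534). MCM2 at H1R6 was lost without NC replicate 1 (0.0893) or H1R6 replicate 2 (0.0777). MCM4 at H1R18 was lost without NC replicate 2 (0.116) or H1 replicate 2 (0.0612), and at H1R6 without any NC, H1 or H1R6 library (0.0712 to 0.344). Other settings also ended calls: DESeq2 that of MCM5 at H1R1, library size only that of MCM7 at H1R1, a fit on the compared conditions those of MCM4 and MCM7 at H1R18, and 6 settings that of MCM4 at H1R6.

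**Figure D3:**
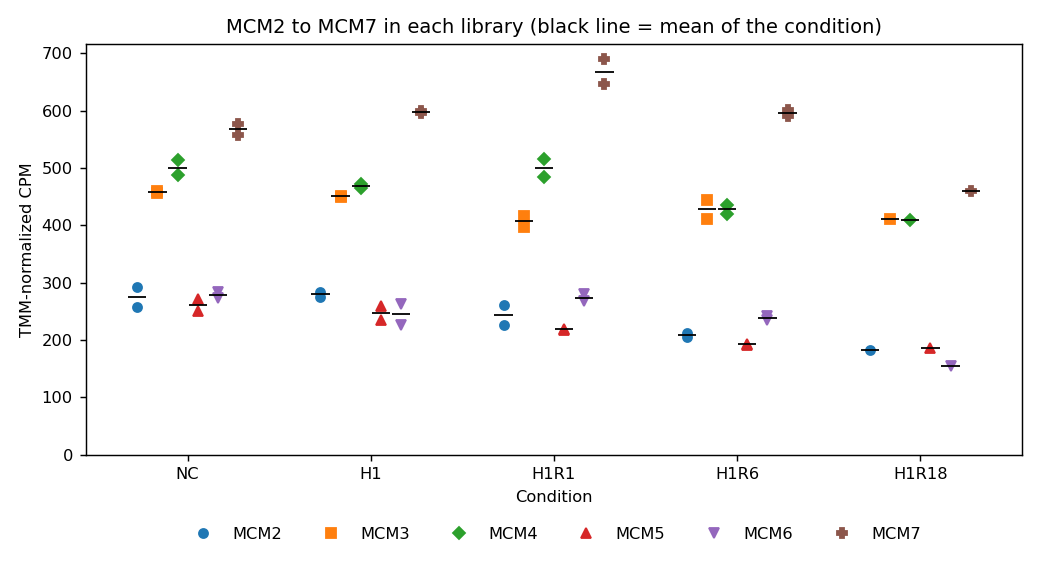
TMM-normalized CPM of MCM2 to MCM7 (marker shapes) in each of the 9 libraries, by condition from NC to H1R18; black lines are the means of the libraries. MCM6 falls to 155 CPM in H1R18, against 274 and 283 CPM in NC, and MCM7 is highest in H1R1, at 647 and 690 CPM.

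Among the genes that switch the helicase on, MCM10, a scaffold of the active helicase, was lower at H1R18. It had 130 and 136 CPM in NC, 116 and 137 CPM in H1, 125 and 126 CPM in H1R1, 129 and 128 CPM in H1R6 and 84.2 CPM in H1R18. The first 8 libraries overlapped and the H1R18 library lay below all of them, at a log2 fold change of -0.66 ± 0.13 from NC (adjusted p = 0.000537) that held in every alternative. CDC45, the helicase cofactor with the highest level per length of this role (31.81 RPKM in NC), had 103 and 86.9 CPM in NC, 102 and 102 CPM in H1, 100 and 99.9 CPM in H1R1, 85 and 83.6 CPM in H1R6 and 86.7 CPM in H1R18, and was not called.

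The GINS complex has 4 subunits. Of these, 1 was called higher at H1R1 and 1 lower at H1R18, beside 10.7% and 6.43% of all genes. Differences between subunits were not tested. GINS3 had 18.8 and 26.9 CPM in NC, 23.7 and 22.8 CPM in H1, 46.6 and 36.8 CPM in H1R1, 33.7 and 24.7 CPM in H1R6 and 23.6 CPM in H1R18. Both H1R1 libraries were above all others, and GINS3 had the largest log2 fold change of the 51 genes in H1R1 against NC, 0.89 ± 0.20 (adjusted p = 0.00127). GINS2 had 74.4 and 81.9 CPM in NC, 88.1 and 76.8 CPM in H1, 102 and 85.8 CPM in H1R1, 69.2 and 76.3 CPM in H1R6 and 55.7 CPM in H1R18, where its log2 fold change against NC was -0.49 ± 0.15 (adjusted p = 0.038). GINS1 and GINS4 were not called against NC, with log2 fold changes of -0.31 and -0.45 at H1R18; GINS4 had negative values at all 4 times, between -0.28 and -0.45.

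The GINS3 call was lost without NC replicate 1 (adjusted p = 0.0649) or H1R1 replicate 1 (0.058). The GINS2 call was lost without NC replicate 1 (0.0558), NC replicate 2 (0.161), H1 replicate 2 (0.0579), H1R6 replicate 1 (0.0634) or H1R6 replicate 2 (0.0631), and in 6 other settings, DESeq2 among them, so that it was kept in 6 of 17 alternatives.

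PCNA (ENSG00000132646, chromosome 20, 5114953 to 5126626), the ring that holds polymerases on DNA, had the highest level per length of all 51 genes in NC (175.1 RPKM). It had 235 and 256 CPM in NC, 222 and 199 CPM in H1, 226 and 208 CPM in H1R1, 246 and 238 CPM in H1R6 and 164 CPM in H1R18. H1R18 was below all other libraries, at a log2 fold change of -0.58 ± 0.11 from NC (adjusted p = 0.000361) that held in every alternative. PCNA was the single gene of its role called at H1R18: RFC1 to RFC5, which encode the loader that opens the ring, had log2 fold changes between -0.40 and 0.09 there and none was called.

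The clamp loader genes gave the single call at the end of heat. RFC5 had 55.6 and 57.4 CPM in H1, against 73.6 and 84.5 CPM in NC, and the libraries did not overlap. Its log2 fold change was -0.48 ± 0.12 (adjusted p = 0.0109), lost without NC replicate 2 (adjusted p = 0.152), H1 replicate 1 (0.114) or H1 replicate 2 (0.101), and with DESeq2. RFC1 had 120 and 130 CPM in H1R1, against 154 and 150 CPM in NC (log2 fold change -0.28 ± 0.09, adjusted p = 0.0229), lost without NC replicate 1 (0.0948) or H1R1 replicate 1 (0.198), and with DESeq2. RFC2, RFC3 and RFC4 were not called in any comparison.

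Of the 9 polymerase and primase genes, 3 (33.3%) were called lower in H1R1 against NC, beside 9.53% of all genes, and DESeq2 called 1; at H1R6 1 was called lower and at H1R18 none. PRIM1, which encodes the catalytic subunit of primase, had 27.7 and 33.9 CPM in NC, 31.9 and 29.3 CPM in H1, 21.9 and 17.4 CPM in H1R1, 31.6 and 30.6 CPM in H1R6 and 25.7 CPM in H1R18. Its H1R1 libraries were the lowest, and the H1R6 libraries were again within the NC range, with a log2 fold change of -0.63 ± 0.19 in H1R1 against NC (adjusted p = 0.0162). POLD3, a subunit of polymerase delta, had 39.4 and 44.5 CPM in H1R1, against 56.3 and 57.4 CPM in NC (log2 fold change -0.44 ± 0.14, adjusted p = 0.0188). POLD2, the subunit with the highest level per length of this role (43.31 RPKM in NC), had 122 and 134 CPM in H1R1, against 157 and 162 CPM in NC (-0.32 ± 0.09, adjusted p = 0.011).

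POLD1, the catalytic subunit of polymerase delta, was lowest later. It had 202 and 197 CPM in NC, 197 and 210 CPM in H1, 174 and 168 CPM in H1R1, 143 and 153 CPM in H1R6 and 177 CPM in H1R18. Its log2 fold change in H1R6 against NC was -0.43 ± 0.08 (adjusted p = 0.000833), and this call held in every alternative. POLA1, POLA2, POLE, POLE2 and PRIM2 were not called in any comparison, and 0 of the 9 genes of this role were called at H1R18, where at an unadjusted p under 0.05 0 were higher and 1 was lower and DESeq2 called 0. Of the exon bases of POLA2, 36.135% overlap another gene on the same strand, so its counts are uncertain. PRIM1 shares 4.869% of its exon bases with NACA and 12.68% with another gene, both on the same strand. It also shares 4.623% with HSD17B6 on the opposite strand, so the PRIM1 counts are uncertain too. The PRIM1 call at H1R1 was lost without NC replicate 2 (adjusted p = 0.157) or H1R1 replicate 2 (0.135), that of POLD2 without NC replicate 2 (0.0567) or H1R1 replicate 1 (0.158), and that of POLD3 without NC replicate 1 (0.0649), NC replicate 2 (0.0761) or H1R1 replicate 1 (0.19). DESeq2 also did not call PRIM1 and POLD3 at H1R1.

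Of the genes that finish the lagging strand, FEN1 and LIG1 moved in opposite directions at H1R1. FEN1 (ENSG00000168496, chromosome 11, 61792911 to 61797238), the nuclease that trims the flaps of Okazaki fragments, had 102 and 91.3 CPM in NC, 85.7 and 87.1 CPM in H1, 138 and 133 CPM in H1R1, 128 and 118 CPM in H1R6 and 70.8 CPM in H1R18. The H1R1 and H1R6 libraries were above all others and the H1R18 library was below all others. FEN1 had log2 fold changes against NC of 0.49 ± 0.10 in H1R1 (adjusted p = 0.00035), 0.35 ± 0.10 in H1R6 (adjusted p = 0.021) and -0.45 ± 0.13 in H1R18 (adjusted p = 0.0211).

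LIG1 (ENSG00000105486, chromosome 19, 48115445 to 48170603), the ligase that joins the trimmed fragments, had 119 and 112 CPM in NC, 115 and 110 CPM in H1, 74.2 and 80.7 CPM in H1R1, 85.5 and 77.9 CPM in H1R6 and 87 CPM in H1R18. All recovery libraries were below all NC and H1 libraries. Its log2 fold changes against NC were -0.58 ± 0.10 in H1R1 (adjusted p = 8e-05), -0.50 ± 0.10 in H1R6 (adjusted p = 0.0012) and -0.41 ± 0.13 in H1R18 (adjusted p = 0.0337).

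The H1R1 calls of FEN1 and LIG1 held in every alternative. FEN1 lost its call at H1R6 without NC replicate 2 (adjusted p = 0.129) or H1R6 replicate 1 (0.161) and at H1R18 without NC replicate 1 (0.137). LIG1 lost its call at H1R6 without H1R6 replicate 2 (0.0732) and at H1R18 without NC replicate 1 (0.142), either H1 library (0.0502 and 0.0583) or either H1R6 library (0.0543 and 0.0529). DESeq2 did not call FEN1 at H1R6 or either gene at H1R18, and a fit on the compared conditions called neither at H1R18.

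RPA1, RPA2 and RPA3 encode the complex that coats single-stranded DNA. RPA1 had a log2 fold change of 0.31 ± 0.09 in H1R1 against NC (adjusted p = 0.0159), lost without NC replicate 2 (adjusted p = 0.125) or H1R1 replicate 2 (0.189), and with library size only. RPA2, the gene of this role with the highest level per length (59.68 RPKM in NC), had 130 and 106 CPM in NC, 126 and 135 CPM in H1, 113 and 116 CPM in H1R1, 138 and 147 CPM in H1R6 and 114 CPM in H1R18, and was not called against NC. RPA3 was not called in any comparison.

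Of 5 genes that supply nucleotides, 4 were called lower at H1R18, beside 6.43% of all genes and 12.6% of the 8657 well-expressed genes. DESeq2 called 1 of the 4, RRM1. RRM1, the large subunit of ribonucleotide reductase and the gene of this role with the highest level per length (52.76 RPKM in NC), had 217 and 230 CPM in NC, 210 and 200 CPM in H1, 234 and 220 CPM in H1R1, 192 and 190 CPM in H1R6 and 171 CPM in H1R18. RRM2, the small subunit whose level is known to peak in S phase, had 238 and 229 CPM in NC, 247 and 238 CPM in H1, 279 and 278 CPM in H1R1, 219 and 211 CPM in H1R6 and 190 CPM in H1R18. Both H1R18 values were the lowest of the series, and the RRM2 values in H1R1 were the highest. RRM1 had a log2 fold change of -0.38 ± 0.10 in H1R18 against NC (adjusted p = 0.0133), and RRM2 had 0.25 ± 0.08 in H1R1 (adjusted p = 0.0183) and -0.30 ± 0.10 in H1R18 (adjusted p = 0.0486).

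DUT, the enzyme that keeps uracil out of DNA by destroying dUTP, had 74.6 and 85.1 CPM in NC, 70.4 and 71.3 CPM in H1, 74.3 and 70.3 CPM in H1R1, 63.9 and 56.3 CPM in H1R6 and 54.4 CPM in H1R18. All H1R6 and H1R18 libraries were below all others, with log2 fold changes against NC of -0.41 ± 0.12 in H1R6 (adjusted p = 0.028) and -0.55 ± 0.15 in H1R18 (adjusted p = 0.0167). DUT shares 14.507% of its exon bases with DUT-AS1 on the opposite strand and has 8 pseudogenes in the annotation, so its counts are uncertain. TK1, thymidine kinase, had -0.47 ± 0.14 in H1R18 (adjusted p = 0.0276). TYMS, thymidylate synthase, was not called in any comparison; 39.942% of its exon bases overlap ENOSF1 on the opposite strand.

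Each of these nucleotide supply calls depended on 1 or more libraries. RRM1 at H1R18 was lost without NC replicate 2 (adjusted p = 0.0704) and DUT at H1R18 without NC replicate 2 (0.103). TK1 was lost without NC replicate 1 (0.103), NC replicate 2 (0.0658), H1R6 replicate 1 (0.0528) or H1R6 replicate 2 (0.0524). RRM2 at H1R1 was lost without NC replicate 2 (0.0793), H1R1 replicate 1 (0.0813) or H1R1 replicate 2 (0.0558), and at H1R18 without any NC, H1 or H1R6 library (0.0675 to 0.161). DUT at H1R6 was lost without NC replicate 2 (0.247), H1 replicate 2 (0.0539), H1R6 replicate 1 (0.0622) or H1R6 replicate 2 (0.333). DESeq2 called neither RRM2 nor TK1 at H1R18 and DUT at neither time, a fit on the compared conditions ended the H1R18 calls of RRM1, RRM2 and TK1 and that of DUT at H1R6, no filter on low counts also ended that of DUT at H1R6, and library size only that of RRM2 at H1R1. The H1R18 call of RRM2 was kept in 2 of 17 alternatives.

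UHRF1 (ENSG00000276043, chromosome 19, 4903080 to 4962154), which brings the maintenance DNA methyltransferase to newly copied DNA, had the largest fall of the 51 genes at H1R18. It had 237 and 196 CPM in NC, 249 and 261 CPM in H1, 292 and 295 CPM in H1R1, 200 and 216 CPM in H1R6 and 113 CPM in H1R18. The H1R1 libraries were above and the H1R18 library below all others. Its log2 fold change against NC was 0.43 ± 0.09 in H1R1 (adjusted p = 0.000388) and -0.95 ± 0.12 in H1R18 (adjusted p = 8.38e-07), a level of 0.519 of that in NC, and both calls held in every alternative.

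CHAF1A and CHAF1B encode subunits of the factor that places histones on new DNA. CHAF1B had a log2 fold change of -0.80 ± 0.19 in H1R18 against NC (adjusted p = 0.00418), lost without NC replicate 1 (adjusted p = 0.0602), while CHAF1A had -0.11 ± 0.12 (adjusted p = 0.621). SLBP, which binds the end of histone transcripts, had 104 and 105 CPM in NC, 109 and 121 CPM in H1, 106 and 101 CPM in H1R1, 117 and 97.3 CPM in H1R6 and 89 CPM in H1R18. SLBP and NPAT, a coactivator of histone genes, were not called in any comparison; of these 2 genes, 0 had an unadjusted p under 0.05 at H1R18 and DESeq2 called 0.

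Among the 3 E2F activators, E2F2 and E2F3 were called lower at H1R18 and E2F1 was not, beside 6.43% of all genes. All 3 had negative log2 fold changes there, between -0.63 and -0.18, and differences between them were not tested. E2F1 had 97.1 and 108 CPM in NC, 97.7 and 94.7 CPM in H1, 85.2 and 92.4 CPM in H1R1, 97.1 and 100 CPM in H1R6 and 90.8 CPM in H1R18, and was not called in any comparison although it had the highest level per length of the 3 (38.22 RPKM in NC). E2F3 had 132 and 100 CPM in NC, 117 and 110 CPM in H1, 152 and 139 CPM in H1R1, 115 and 124 CPM in H1R6 and 81.3 CPM in H1R18. The H1R1 libraries of E2F3 were the highest and the H1R18 library the lowest, with log2 fold changes against NC of 0.32 ± 0.10 in H1R1 (adjusted p = 0.029) and -0.52 ± 0.14 in H1R18 (adjusted p = 0.0139). E2F2 had -0.63 ± 0.15 in H1R18 (adjusted p = 0.0045), which held in every alternative. The H1R1 call of E2F3 was lost without NC replicate 2 (adjusted p = 0.392) or H1R1 replicate 1 (0.228), and its H1R18 call without NC replicate 1 (0.238). DESeq2 made neither call of E2F3, and upper-quartile factors, library size only and a fit on the compared conditions also ended that at H1R1.

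**Figure D4:**
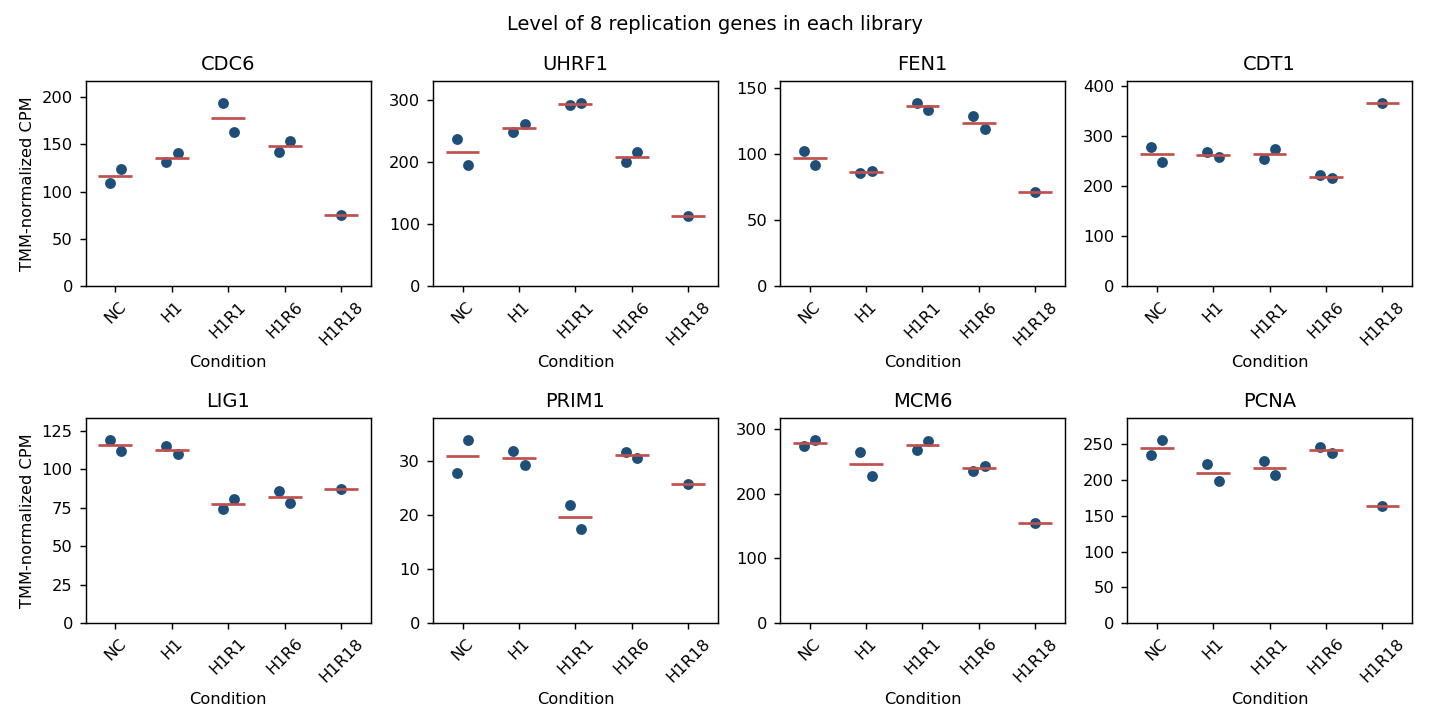
TMM-normalized CPM of 8 replication genes in each library (points) with the mean of each condition (lines), from NC to H1R18. CDC6, UHRF1 and FEN1 are highest in H1R1 and lowest in H1R18, CDT1 is highest in H1R18, and LIG1 stays below its NC and H1 libraries at all recovery times.

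Across the 4 comparisons with NC, which share the same 2 NC libraries, 29 genes were called at least once and 22 never. The matching counts over all genes tested were not taken, for these or for the patterns below, so they have no background beside them. Of the 29, 6 (CDC6, MCM7, FEN1, RRM2, UHRF1 and E2F3) were higher at H1R1 and lower at H1R18, 5 (MCM2, MCM4, MCM5, LIG1 and DUT) were lower at both H1R6 and H1R18, and 8 (MCM6, MCM10, GINS2, PCNA, RRM1, TK1, CHAF1B and E2F2) were lower at H1R18 alone. The side-by-side values of CDC6, which CDT1 works with, and of CDT1 itself had opposite signs in H1R18, -0.63 and 0.47.

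Between the end of heat and 1 h of recovery, 4 genes were higher in H1R1 than in H1 and 4 lower (7.84% each), against 6.35% and 5.08% of all genes and 13.4% and 7.89% of the 8657 well-expressed genes. DESeq2 called 3 and 1. The calls that held in every alternative were those of FEN1, with a log2 fold change of 0.65 ± 0.09 (adjusted p = 1.57e-05), and of LIG1, with -0.54 ± 0.10 (adjusted p = 0.00036). The counts were 2 and 1 without either H1 library, and 1 and 2 without H1R1 replicate 1.

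Between 1 and 6 h of recovery, 2 genes were higher in H1R6 than in H1R1 and 8 lower, against 6.43% and 8.93% of all genes and 8.86% and 17.2% of the 8657 well-expressed genes. UHRF1 (-0.50 ± 0.08, adjusted p = 9.31e-05) and RRM2 (-0.37 ± 0.08, adjusted p = 0.000814) were lower in every alternative. PRIM1 had 0.65 ± 0.18 (adjusted p = 0.0139) and RPA2 0.32 ± 0.10 (adjusted p = 0.0232); PRIM1 was lost without H1R1 replicate 2 (0.134) or either H1R6 library (0.0827 and 0.0549), and RPA2 without either H1R1 library (0.13 and 0.0752) or either H1R6 library (0.0511 and 0.161). The count of lower genes was 4 without H1 replicate 2 or without H1R1 replicate 1, 3 without H1R6 replicate 1 and 2 without H1R6 replicate 2, and that of higher genes was 1 without H1R1 replicate 1 and 0 without H1R1 replicate 2 or either H1R6 library. Scaling by library size alone turned the split to 3 higher and 2 lower, and upper-quartile scaling to 2 and 4; DESeq2 called 0 and 4.

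Between 6 and 18 h, 1 gene was higher in H1R18 than in H1R6 and 13 (25.5%) were lower, against 6.28% and 7.65% of all genes and 11.5% and 14.9% of the 8657 well-expressed genes. DESeq2 called 1 higher and 9 lower. CDC6 (-0.97 ± 0.13, adjusted p = 4.09e-06), UHRF1 (-0.89 ± 0.12, adjusted p = 2.17e-06), FEN1 (-0.80 ± 0.13, adjusted p = 4.2e-05), MCM6 (-0.63 ± 0.11, adjusted p = 9.82e-05) and PCNA (-0.56 ± 0.11, adjusted p = 0.000409) were lower, and CDT1 was higher (0.74 ± 0.09, adjusted p = 1.43e-06). These 6 calls, with those of MCM7 (-0.38 ± 0.08) and MCM10 (-0.61 ± 0.12), held in every alternative. The count of higher genes was 2 without NC replicate 1 or NC replicate 2.

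Genes with and without the E2F motif in the promoter were set side by side. At H1R18 against NC, 10 of 21 genes with a match were lower, with a median log2 fold change of -0.30, against 7 of 24 without a match, with a median of -0.20. At H1R1, 5 of the 21 were higher and 1 lower, against 4 higher and 3 lower of the 24. Over all genes tested, 6.43% were lower at H1R18, and 10.7% were higher and 9.53% lower at H1R1. CDT1 and CDC6 held a match and FEN1 held none, and a link between the motif and the direction of change was not tested. Only the spellings listed above were searched, so genes counted without a match could hold other spellings. Gene span, which runs from 4.328 to 332 kb among the 51 genes, had a Pearson correlation of -0.0344 with the log2 fold change at H1R1 and -0.0413 at H1R18 (n = 51 genes, which share the same libraries and are not independent replicates).

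A further 64 replication and S-phase genes outside the 51 give the rest of the pathway. Of these, 3 were higher and 3 lower in H1, 9 and 7 in H1R1, 2 and 3 in H1R6, and 1 and 12 (18.8%) in H1R18, all against NC, beside the background shares given above. WEE1, the kinase that restrains CDK activity, had log2 fold changes of 0.82 ± 0.10 in H1 (adjusted p = 9.06e-07) and 1.10 ± 0.10 in H1R1 (adjusted p = 8.11e-10). TICRR, which helps to fire origins, had 0.36 in H1 and 0.79 in H1R1, and CCNE1, cyclin E1, had 0.76 in H1. CTPS1 (-0.29), HELLS (-0.28) and FBXO5 (-0.45) were lower in H1.

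In H1R1, CDC25A, the phosphatase that opposes WEE1, had a log2 fold change of 0.65 against NC, while CDC7, the kinase that fires licensed origins, had -0.62, and RBL1 and RBL2, of the retinoblastoma family, had -0.57 and -0.68. In H1R6, CDC25A (0.45) and the checkpoint kinase ATR (0.32) were higher, and TIMELESS (-0.35) and TFDP2 (-0.43) were lower. In H1R18, ATAD5, which takes PCNA off DNA, was higher (0.56), and ASF1B, a histone chaperone (-0.85), TOP1, topoisomerase I (-0.63), and TFDP1, the partner of E2F factors (-0.59), were lower. All values in this paragraph passed the test.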

How the data were processed

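Total RNA depleted of ribosomal RNA was sequenced. Per the file header, the authors counted paired reads over the exons of each gene of Ensembl release 104 (GRCh38) with featureCounts 2.0.2, without strand; the deposited counts are raw counts, and each read of a pair counted. The submitters' processing notes also list FastQC 0.11.8, cutadapt 4.1, HISAT2 2.2.1 and DESeq2 1.38.3.

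From the deposited counts, edgeR 4.0.16 (R 4.3.3) was fitted to all 9 libraries with TMM scaling and 1 coefficient per condition, on 21139 genes past filterByExpr (minimum count 10, minimum total 15), with Benjamini-Hochberg adjustment over all of them. RPKM divides CPM by the exon length of the table in kilobases. The script was tested on simulated data. The members and lists were chosen with earlier results of these data known. Described by library are, per comparison and direction, up to 5 called genes with the smallest adjusted p whose libraries do not overlap, and the highest gene per length of each role.

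There were 18 alternatives (17 for H1R18): RLE and upper-quartile factors, library size only, DESeq2 1.42.0, no filter, a minimum of 10 counts per library, a fit on the compared conditions alone, halved counts, a replicate block, and each library left out. The 1 H1R18 library could not be left out of its own comparisons, so their calls all rest on it.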

Additional observations from a re-analysis of the deposited data

Results flagged for a closer look

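The following differences between successive times passed edgeR's quasi-likelihood test of the difference itself and are given as log2 fold changes. In H1R1 against H1, FEN1 (0.65), GINS3 (0.85), CDC6 (0.39) and E2F3 (0.36) were higher, and LIG1 (-0.54), PRIM1 (-0.63), POLD3 (-0.42) and POLD1 (-0.25) were lower. Leaving out 1 library ended 6 of these 8 calls, with FEN1 and LIG1 kept. The highest adjusted p were 0.208 for CDC6 and 0.112 for GINS3 (both without H1R1 replicate 1), 0.22 for E2F3 and 0.255 for POLD1 (both without H1 replicate 2), 0.173 for PRIM1 (without H1R1 replicate 2) and 0.289 for POLD3 (without H1R1 replicate 1).

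In H1R6 against H1R1, PRIM1 (0.65) and RPA2 (0.32) were higher, and UHRF1 (-0.50), RRM2 (-0.37), GINS2 (-0.37), ORC6 (-0.36), CDC6 (-0.27), CDT1 (-0.27), RRM1 (-0.25) and MCM4 (-0.23) were lower. Leaving out 1 library ended every one of these calls other than those of UHRF1 and RRM2. The highest adjusted p were 0.508 for CDC6, 0.32 for GINS2 and 0.212 for RRM1 (each without H1R1 replicate 1), 0.322 for ORC6, 0.143 for CDT1, 0.194 for MCM4 and 0.161 for RPA2 (each without H1R6 replicate 2) and 0.134 for PRIM1 (without H1R1 replicate 2). PRIM1 and CDC6 thus had opposite signs here from those in H1R1 against H1, and both comparisons share the H1R1 libraries.

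In H1R18 against H1R6, CDT1 (0.74) was higher, and CDC6 (-0.97), UHRF1 (-0.89), FEN1 (-0.80), MCM6 (-0.63), CHAF1B (-0.61), MCM10 (-0.61), PCNA (-0.56), E2F3 (-0.56), GINS1 (-0.51), TK1 (-0.49), RPA1 (-0.43), E2F2 (-0.43) and MCM7 (-0.38) were lower, with 1 library in H1R18. DESeq2 did not call CHAF1B, GINS1, TK1 or E2F2, and E2F2 was kept in 8 of 17 alternatives. Leaving out H1R6 replicate 1 ended the calls of CHAF1B (adjusted p = 0.175) and RPA1 (0.0502), and leaving out H1R6 replicate 2 ended those of GINS1 (0.291), TK1 (0.0794) and E2F3 (0.0571). E2F2 lost its call without either H1R6 library (0.119 and 0.124) or either H1 library (0.0627 and 0.0642).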

How the results depend on the processing

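Counts of replication genes called higher and lower moved by more than 1.5 times in these settings. The matching counts over all genes are not given, so whether the moves are particular to these genes was not tested. With DESeq2, H1 against NC had 0 lower, H1R1 against NC 2 lower, H1R6 against NC 0 higher, H1R18 against NC 12 lower, H1R1 against H1 1 lower, and H1R6 against H1R1 0 higher and 4 lower. With library size only, H1R1 against NC had 4 higher and 15 lower, and H1R6 against H1R1 2 lower. With no filter on low counts, H1R6 against NC had 4 lower and H1R6 against H1R1 4 lower. Upper-quartile factors gave 4 lower in H1R6 against H1R1. With only the conditions compared in the fit, H1R6 against NC had 4 lower and H1R18 against NC 11 lower. H1R18 against H1R6 had 2 higher with RLE factors, upper-quartile factors, at least 10 counts in every library or a fit on both conditions alone.

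With each library left out in turn, genes called higher and lower numbered 0 to 1 and 0 to 1 in H1 against NC, 5 to 9 and 2 to 7 in H1R1, 1 to 2 and 2 to 7 in H1R6, and 1 to 2 and 12 to 19 in H1R18, all against NC. They numbered 1 to 4 and 1 to 4 in H1R1 against H1, 0 to 2 and 2 to 10 in H1R6 against H1R1, and 1 to 2 and 10 to 14 in H1R18 against H1R6. No result changed sign while called. With the replicate number as a block, the counts of lower genes were 18 in H1R18 against NC (RRM2 lost), 11 in H1R18 against H1R6 (GINS1 and E2F2 lost), 3 in H1R1 against H1 (POLD1 lost) and 7 in H1R6 against H1R1 (CDC6 lost), and no other call was lost; same-numbered libraries did not deviate together (correlations of -0.0012 to 0.0175), so the numbers were not used as pairs. H1R18 has 1 library and the lowest member counts fall to 73, with each read of a pair counted, which limits the precision of the weakest genes. The causes of these changes were not tested.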
